A study of Homo sapiens with 2 samples.

Results

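The cytosolic ribosome is built from ribosomal RNA and a fixed set of ribosomal proteins. Genes for these proteins were picked by a rule on their names, and the set was chosen with earlier results of these data known. A gene was a member if its listed symbol was RPL or RPS followed by a number, by P0, P1 or P2, or by A, with an optional A or X after the number. This gave 77 of the 33538 genes in the deposited tables, 46 of the large subunit (RPL) and 31 of the small subunit (RPS).

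The authors sequenced the RNA of single HCT116 cells, a human colon cancer cell line, with 1 library per condition. Decitabine (DAC), an analog of deoxycytidine, enters newly made DNA and binds the DNA methyltransferases there, and dividing cells then lose methylation. For the DAC-treated cells, the drug was added at 0.5 µM on day 1 and again on day 3. Drug-free medium followed from day 5 and collection on day 7, and the other cells were mock-treated. Cells of both conditions were grown in McCoy's 5A medium with serum.

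Cells with 10000 or more UMIs and with 50% or less of their UMIs from genes of the mitochondrial genome (MT- genes) were kept. This left 1298 of 1783 mock-treated cells and 1120 of 1751 DAC-treated cells, with 47098139 and 54447636 UMIs, respectively. A UMI (unique molecular identifier) tags a single captured transcript near its poly(A) tail, so counts of different genes can be set beside each other without dividing by transcript length. The median kept cell had 32297 UMIs after mock treatment and 47061 after DAC, and more sequencing, better capture and more RNA per cell cannot be told apart behind this difference. The median share of MT- genes was 17.1% and 17.9%, respectively. The libraries shared 12 cell barcodes, none of them (0) among kept cells. Of the epithelial markers, KRT18 had 99746 UMIs in mock-treated and 246669 in DAC-treated cells, EPCAM had 16851 and 12400, KRT8 had 53570 and 108335, and CDH1 had 1084 and 1098. Of the markers of other cell types, PTPRC (0 and 16 UMIs), COL1A2 (0 and 3) and PECAM1 (0 and 44) were at or near 0, and COL1A1 had 496 and 943 UMIs. Since each condition had 1 library, no difference below has a replicate check or a p-value, and intervals are 95% intervals for counting error only.

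Ribosomal proteins are needed in equal numbers, since nearly all of them occur once per ribosome, and their genes are among the most highly expressed in growing cells. Their mRNAs, together with those of several translation factors, begin with a cytosine followed by a run of pyrimidines. This 5′ terminal oligopyrimidine (TOP) motif lets the mTOR pathway turn the translation of all of them up or down together. In RefSeq's table of promoter windows (GRCh38.p14), which run from 250 bases before to 50 bases after a start site, 62 of the 77 members were matched, with 77 windows. A start of C followed by 4 or more C or T was found in 46 of these windows (59.7%) and in 4.07% of all 35116 windows. The ETS-type motif CCGGAAG, on either strand, was found in 33.8% of the member windows and 10.3% of all windows, AAGATGGC in 7.79% and 2.89%, and GGGCGG in 54.5% and 45%. The median member window had 23 CpG sites, and the median of all windows was 14.

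Stretches around the annotated start are given for genes from both ends of the order of DAC-to-mock ratios described below, with a TOP gene outside the members (EEF1A1) and a ribosomal protein gene with another kind of name (FAU). Each runs 5′ to 3′ on the gene's strand, from 30 bases before the annotated start to 20 bases from it, and capitals mark a C/T run of 5 or more bases that begins with C exactly at that start.
RPL3 (minus strand, chr22:39319604-39319653): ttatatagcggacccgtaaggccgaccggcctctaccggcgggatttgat
RPL31 (plus strand, chr2:101002259-101002308): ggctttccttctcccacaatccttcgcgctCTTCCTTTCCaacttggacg
RPL10A (plus strand, chr6:35468371-35468420): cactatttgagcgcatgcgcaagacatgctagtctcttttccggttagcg
RPL38 (plus strand, chr17:74203648-74203697): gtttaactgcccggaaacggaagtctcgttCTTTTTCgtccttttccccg
RPL35 (minus strand, chr9:124861938-124861987): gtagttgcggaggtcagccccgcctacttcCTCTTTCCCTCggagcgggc
RPS26 (plus strand, chr12:56041888-56041937): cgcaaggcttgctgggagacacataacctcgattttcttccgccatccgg
EEF1A1 (minus strand, chr6:73521013-73521062): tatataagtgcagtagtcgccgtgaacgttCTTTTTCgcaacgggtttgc
FAU (minus strand, chr11:65122115-65122164): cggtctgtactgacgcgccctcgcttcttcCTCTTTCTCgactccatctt
The run at the start had 10 bases in RPL31, 11 in RPL35, 9 in FAU, and 7 in both RPL38 and EEF1A1. RPL3, RPL10A and RPS26 had no run of that length exactly at the annotated start. The C/T run of RPL3 there had 4 bases, and RPL10A and RPS26 hold C/T-rich letters within a few bases of it.

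The share of a library's UMIs that came from the 77 members was lower in DAC-treated cells. Members made up 24.7% of the mock-treated UMIs (11650174) and 16.2% of the DAC-treated UMIs (8814826), a log2 ratio of -0.61 (interval -0.61 to -0.61). Large subunit genes went from 14.4% to 9.36% and small subunit genes from 10.3% to 6.83%, so both subunits were lower to a similar extent (log2 ratios of the sums -0.63 and -0.59). Leaving MT- genes out of the total, members held 29.9% and 19.98% of the UMIs.

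Shares are relative, and the total moved as well. The median mock-treated cell had 8285 member UMIs, with quartiles of 6703 and 10366, and the median DAC-treated cell had 7512, with quartiles of 5503 and 9835, a ratio of 0.907. UMIs of other genes outside the mitochondrial genome had a ratio of medians of 1.66. The lower share thus went with slightly fewer member UMIs per cell and with more UMIs of other genes. Per cell, the ratio of large to small subunit UMIs had a median of 1.401 in mock-treated cells (5th to 95th percentile 1.32 to 1.49) and 1.38 in DAC-treated cells (1.23 to 1.51), so the balance between subunits differed little in its median and was broader in DAC-treated cells.

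The difference was spread over most cells. In mock-treated cells, the members' share of a cell's UMIs ranged from 4.48% to 35.02%, with a median of 25.2% and quartiles of 22.9% and 27.4%. In DAC-treated cells it ranged from 2.47% to 30.2%, with a median of 16.1% and quartiles of 13.6% and 18.2%. The medians differed by -9.11 percentage points (DAC minus mock). Of the DAC-treated cells, 891 (79.6%) lay below the 5th percentile of mock-treated cells, 18.9%, and 98.8% lay below the mock-treated median. Of the mock-treated cells, 26 (2.003%) lay below the DAC-treated median. These shares describe the cells of 1 library per condition and have no interval. The SD over cells was 3.66 points (mock) and 3.86 points (DAC), which is 14.7% and 24.2% of the respective means.

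**Figure D1:**
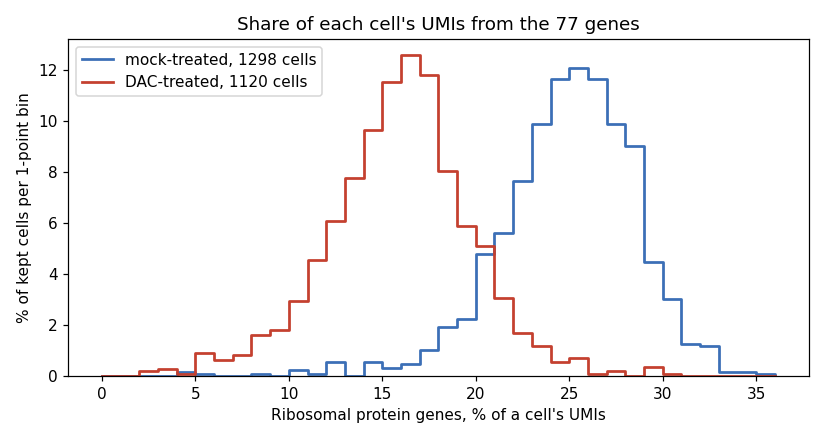
Distribution of the share of each cell's UMIs that came from the 77 ribosomal protein genes, in bins of 1 percentage point, as a percentage of the 1298 mock-treated and 1120 DAC-treated kept cells. The DAC-treated cells (median 16.1%) lie to the left of the mock-treated cells (median 25.2%), and both distributions have cells far below their medians.

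The share was lower in DAC-treated cells in every bin of total UMIs. Among cells with 20000 to 30000 UMIs, the median share was 26.1% for 407 mock-treated and 13.5% for 104 DAC-treated cells. Among cells with 40000 to 50000 UMIs, it was 23.5% in 195 and 16.5% in 267 cells. Over 6 bins of total UMIs, the difference ranged from -12.56 to -7.10 points. By bins of mitochondrial share, the difference was -6.56 points under 15% MT- UMIs, -9.38 points at 15 to 20%, -10.47 points at 20 to 30%, and -1.56 points at 30 to 50%, a bin with only 17 mock-treated and 85 DAC-treated cells. The members' share of a cell's UMIs and its MT- share had a correlation of -0.23 over the 1298 mock-treated and -0.50 over the 1120 DAC-treated cells, both measures sharing the cell's total as denominator. With MT- UMIs removed from the denominator, the correlations were 0.060 and -0.15. In cells with 20% or less MT- UMIs, the difference in the median share was -8.40 points, and as a share of non-MT UMIs over all kept cells it was -10.83 points.

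**Figure D2:**
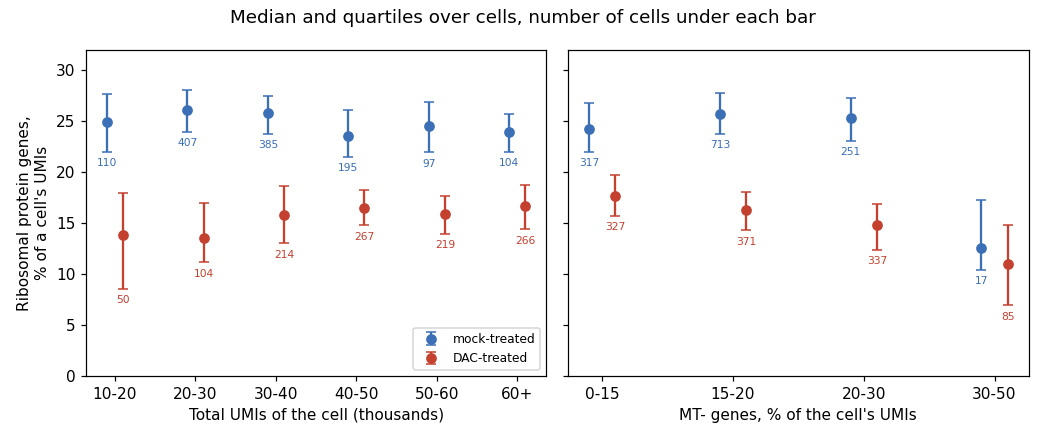
Median (points) and quartiles (bars) of the members' share of a cell's UMIs, in percent, for cells binned by total UMIs (left, labels in units of 1000) and by the percentage of UMIs from MT- genes (right), with the number of cells under each bar. DAC-treated medians are below mock-treated medians in all 6 depth bins, with differences of -12.56 to -7.10 points, and the conditions approach each other in the bin of 30 to 50% MT- UMIs.

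The 311 mock-treated and 319 DAC-treated cells with more than 50% MT- UMIs had median member shares of 2.15% and 1.93%. The 174 and 312 cells with too few UMIs had 22.2% and 16.9%, beside 25.2% and 16.1% in kept cells.

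Gene by gene, nearly all members were lower in DAC-treated cells. UMIs were summed over the kept cells and scaled to the library's total (CPM). The median log2 ratio of CPM, DAC over mock, was -0.60 over the 77 members and 0.23 over the 7938 genes with 1000 or more UMIs in the libraries together, so members were lower by 0.84 when the middle gene is set to 0 (median-of-ratios scaling). The CPM was lower in 75 members, against a background of 34.8% of all genes, and higher in 2, against 65.2%. By a fold of 1.2 or more, 69 members were lower, against a background of 21.5% of all genes, and 1 was higher, against 48.2%. By a fold of 1.5 or more, 43 were lower (background 11%) and 0 were higher (background 27%), and 8 members were lower by a fold of 2 or more (background 4.79%). Without scaling, the median UMI count per cell was lower in 51 members, equal in 2 and higher in 24, with DAC-treated cells having 1.46 times as many UMIs in the median cell. Among 5353 genes with a median of 1 or more UMIs over all kept cells, it was lower in 8.89%, equal in 30.7% and higher in 60.5%, and ties are common among genes with few UMIs.

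**Figure D3:**
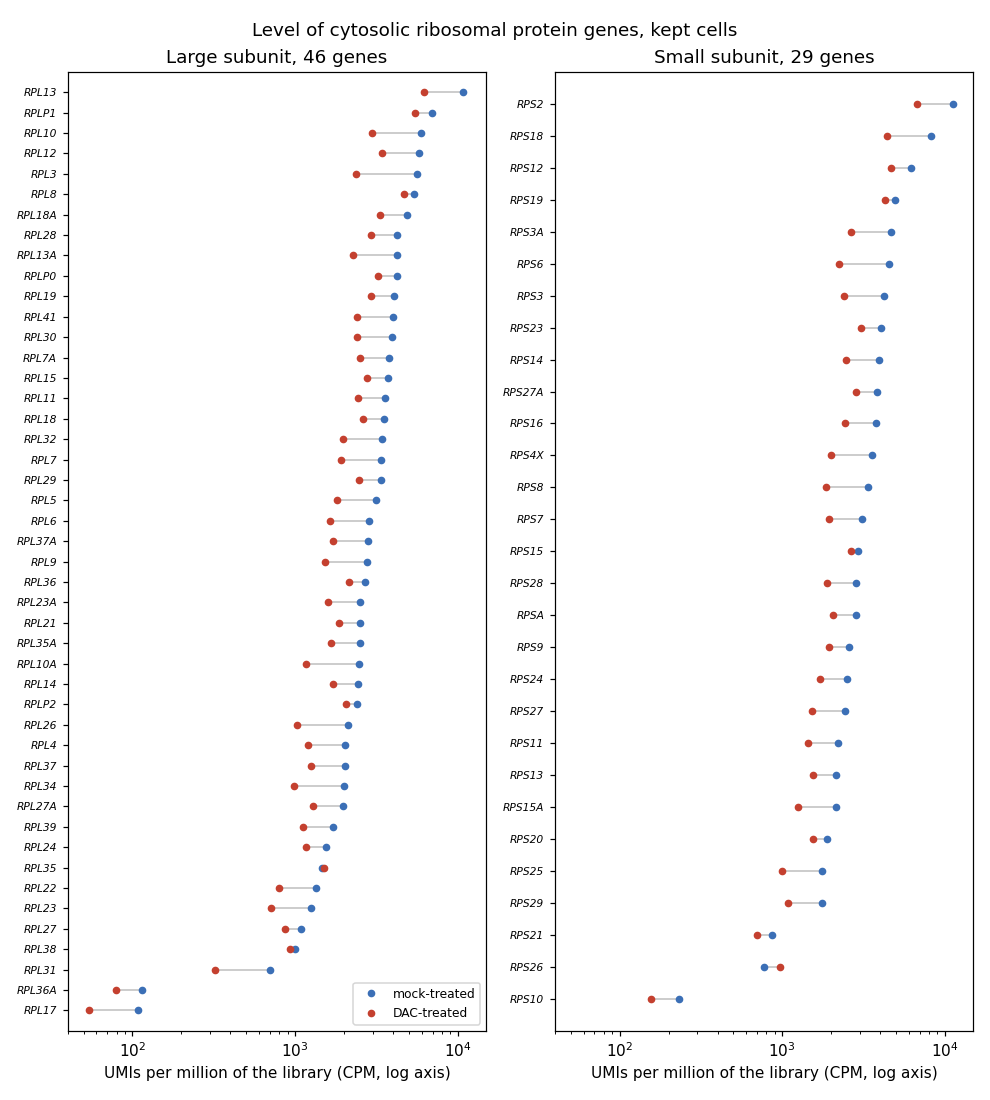
CPM (log axis) of 46 large subunit and 29 small subunit genes in mock-treated (blue) and DAC-treated (red) cells, joined by a line and ordered by the mock-treated level. The red point is to the left for 73 of the 75 genes shown, and RPS26 and RPL35 are the exceptions.

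Levels differed far more between members than between conditions. By the mean CPM of both libraries, RPS2, a protein near the mRNA entry site, was highest, with 11229 CPM in mock-treated and 6756 CPM in DAC-treated cells, followed by RPL13 with 10783 and 6248 CPM, RPS18 with 8265 and 4399 CPM, RPLP1 with 6930 and 5475 CPM, and RPS12 with 6173 and 4643 CPM. In DAC-treated cells alone, RPLP1 stood above RPS18, and RPL8 (4683 CPM) above both RPS12 and RPS18. Among the lowest were RPL17 with 109 and 53.7 CPM, RPL36A with 114 and 79.3 CPM, RPS10 with 232 and 156 CPM, and RPL31 with 697 and 323 CPM. The highest member thus had 103 times the level of the lowest in mock-treated cells and 126 times in DAC-treated cells.

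The low end of this order is uncertain. RPL17, RPL36A and RPS10 each overlap another gene on the same strand in GENCODE release 44 (the readthrough genes RPL17-C18orf32, RPL36A-HNRNPH2 and RPS10-NUDT3), and 10 members do so in all. Reads that fall on 2 genes may not have been counted, and how the authors' counting treated them was not tested. The 10 overlapping members were all lower in DAC-treated cells, with a median log2 ratio of -0.59, and the 67 others had a median of -0.63.

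The order of the members was largely kept between conditions. The correlation of log2 CPM over the 77 members was 0.97. The SD of log2 CPM was 1.25 and 1.24, and the 10 highest members held 28.7% of the members' UMIs in both libraries. Of the 100 genes with the most UMIs, members made up 66 with mock treatment and 56 with DAC. Of the top 50, 33 and 28 were members. A UMI of 72 members was found in every kept mock-treated cell, and of 62 members in every DAC-treated cell.

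The SD of the log2 ratios was 0.28 over members and 1.08 over all 7938 genes, which include many genes with fewer UMIs. Of the 77, 53 were within a fold of 1.2 of the change of their sum and 74 within a fold of 1.5. The widest counting interval of a member spanned 0.13 on the log2 scale, and the spread between libraries of the same condition was not measured. The correlation was -0.020 between the log2 ratio and the mean log2 CPM of a member.

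The lowest ratio was that of RPL3 (chr22:39312882-39320389, minus strand), a core protein beside the peptidyl transferase center. RPL3 had 5655 CPM in mock-treated and 2359 CPM in DAC-treated cells, and the median cell had 189.5 and 108 UMIs. The log2 ratio was -1.26 (interval -1.27 to -1.25). RPL31, at the polypeptide exit of the large subunit, had 697 and 323 CPM (-1.11), and RPL10A, the protein of the L1 stalk, which helps the spent tRNA to leave, had 2473 and 1171 CPM (-1.08). RPL26, also at the exit tunnel, had 2125 and 1032 CPM (-1.04). RPS6, the best-known substrate of S6 kinase, had 4535 and 2240 CPM (-1.02), and RPL17 had 109 and 53.7 CPM (-1.02, interval -1.08 to -0.95).

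At the other end, RPS26 (chr12:56041351-56044697, plus strand), which contacts the mRNA near its exit channel, was higher in DAC-treated cells, with 777 CPM in mock-treated and 964 CPM in DAC-treated cells. The median cell had 26 and 45 UMIs of RPS26, and the log2 ratio was 0.31 (interval 0.29 to 0.33). It was 0.08 when the middle gene is set to 0, so the direction was kept and the size was not. RPL35 had 1455 and 1498 CPM (0.04), and its direction turned to -0.19 with the middle gene at 0. RPL38, known from the mouse for its part in translating homeobox mRNAs, had 1003 and 933 CPM (-0.10), RPS15 had 2929 and 2640 CPM (-0.15), and RPL8 had 5356 and 4683 CPM (-0.19). The median UMI count per cell was higher in DAC-treated cells for each of these 5 genes, for example 34 and 42 for RPL38.

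Groups by place in the ribosome overlapped, and their counts below stand beside 69 of all 77 members lower by a fold of 1.2 or more (background 21.5%). The P stalk recruits elongation factors, and its genes were among the less lowered. RPLP0 had 4241 and 3240 CPM (-0.39), RPLP1 had 6930 and 5475 CPM (-0.34), and RPLP2 had 2401 and 2042 CPM (-0.23). RPL5 and RPL11 bind the 5S rRNA and, when free, the p53 ubiquitin ligase MDM2. RPL5 had 3158 and 1804 CPM (-0.81) and RPL11 had 3564 and 2453 CPM (-0.54), beside an SD of 0.28 over all members. For an approximate list of 10 genes of the exit tunnel rim, the median was -0.63, with RPL31 and RPL35 as its ends, and 9 of the 10 were lower by a fold of 1.2 or more. For 13 genes of the head and beak of the small subunit, the median was -0.58 and 11 were lower by that fold, with RPS18 (-0.91) and RPS15 (-0.15) as the ends. All 4 members on the X chromosome were lower by that fold, with a median of -0.72, and RPL10, which joins the large subunit last and completes it, had 5966 and 2971 CPM (-1.01). The genes lay on 21 chromosomes, with 12 on chromosome 19.

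The same ratios can be restated as composition within the members. As a share of the members' UMIs, RPS26 went from 0.314% to 0.596%, RPL3 from 2.29% to 1.46%, RPL10 from 2.41% to 1.84% and RPS6 from 1.83% to 1.38%. RPL8 went from 2.17% to 2.89% and RPL35 from 0.588% to 0.925%. Shares of a fixed total must rise for some members and fall for others. The share was larger in DAC-treated cells for 39 members and smaller for 38.

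Ratios were also set beside sequence features. The 46 matched members with a TOP start at an annotated start site had a median log2 ratio of -0.57 and ranged from -1.11 to 0.04, and the 16 without had a median of -0.72 and ranged from -1.26 to 0.31. In the stretches printed above, a C/T run of 5 or more bases at the start was present in RPL31 (-1.11) and in RPL35 (0.04), and was not found at the annotated start in RPL3 (-1.26), where the run was shorter, or in RPS26 (0.31). The 22 members with CCGGAAG in a window had a median of -0.81, and the 40 without had -0.55, with overlapping ranges. Medians were -0.59 and -0.60 for the 6 members with and the 56 without AAGATGGC, and -0.59 and -0.68 for the 36 with and the 26 without GGGCGG. GC content of the transcript moved with the ratio. The correlation over members was 0.37 (Spearman's rho 0.38) and over all genes 0.11 (0.15), with all ratios from the same pair of libraries. The 38 members with the lower GC content had a median log2 ratio of -0.71, and the 39 others had -0.56.

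A ribosomal protein gene outside the name rule had another ratio. FAU encodes RPS30 fused to a ubiquitin-like protein. It had 1386 and 1647 CPM (0.25). With the middle gene at 0, FAU was at 0.02, so it lay near the middle gene while members were lower. RPS27A, the member that is itself a ubiquitin fusion, had 3813 and 2845 CPM (-0.42).

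Some paralogs of members replace the usual protein in certain tissues. Of those listed, several were almost absent from mock-treated cells. RPL39L, a testis-enriched copy of RPL39, had 24 UMIs in mock-treated and 1518 UMIs in DAC-treated cells (0.510 and 27.9 CPM), a log2 ratio of 5.77 (interval 5.19 to 6.42). It was found in 1.85% of mock-treated and 49.0% of DAC-treated cells. RPL10L, another testis-enriched copy, had 6 and 571 UMIs (6.36, interval 5.23 to 7.82), in 0.462% and 26.7% of cells. RPL3L, a heart and muscle copy of RPL3, had 7 and 111 UMIs (3.78, interval 2.69 to 5.13). RPL10L and RPL3L had fewer than 1000 UMIs in the libraries together and are in no background, median or plot. The parent genes RPL39 (1710 and 1126 CPM), RPL10 and RPL3 were lower in DAC-treated cells, and since paralogs resemble their parents, some reads may have been assigned to either or to none. In DAC-treated cells RPL39L reached 27.9 CPM beside 1126 CPM of RPL39. Of the paralogs present in mock-treated cells, RPL26L1 had 72.4 and 154 CPM (1.09), RPS27L, a p53 target, had 234 and 397 CPM (0.76), and RPL36AL had 479 and 588 CPM (0.30). RPL7L1 had 110 and 115 CPM (0.07, and -0.17 with the middle gene at 0), and RPL22L1 had 1067 and 919 CPM (-0.22).

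Other genes with TOP mRNAs had ratios like the members. Of 18 listed genes, 17 had 1000 or more UMIs, and their median log2 ratio was -0.60, with 15 lower by a fold of 1.2 or more (background 21.5%) and 9 by a fold of 1.5 or more (background 11%). EEF1A1, the elongation factor that delivers tRNA, went from 9925 to 3583 CPM (-1.47), below every member. EIF4B, an initiation factor, had 357 and 170 CPM (-1.07), TPT1 had 4555 and 2726 CPM (-0.74), and RACK1, a scaffold on the small subunit, had 2565 and 1667 CPM (-0.62). EEF1D, with 564 and 709 CPM (0.33), and NPM1, with 1350 and 1426 CPM (0.08), were higher, and with the middle gene at 0 EEF1D was at 0.10 and NPM1 turned to -0.15. EEF1G had only 79 UMIs in each library.

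Proteins of the mitochondrial ribosome, which are made in the cytosol from nuclear genes, had ratios near those of all genes. Of 78 genes, 75 had 1000 or more UMIs, with a median log2 ratio of 0.27, 38 higher and 10 lower by a fold of 1.2 or more, beside backgrounds of 48.2% and 21.5%. With the middle gene at 0 the median was 0.04, with 40 higher and 35 lower. The genes ranged from -0.86 (MRPS10) to 1.30 (MRPL27).

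**Figure D4:**
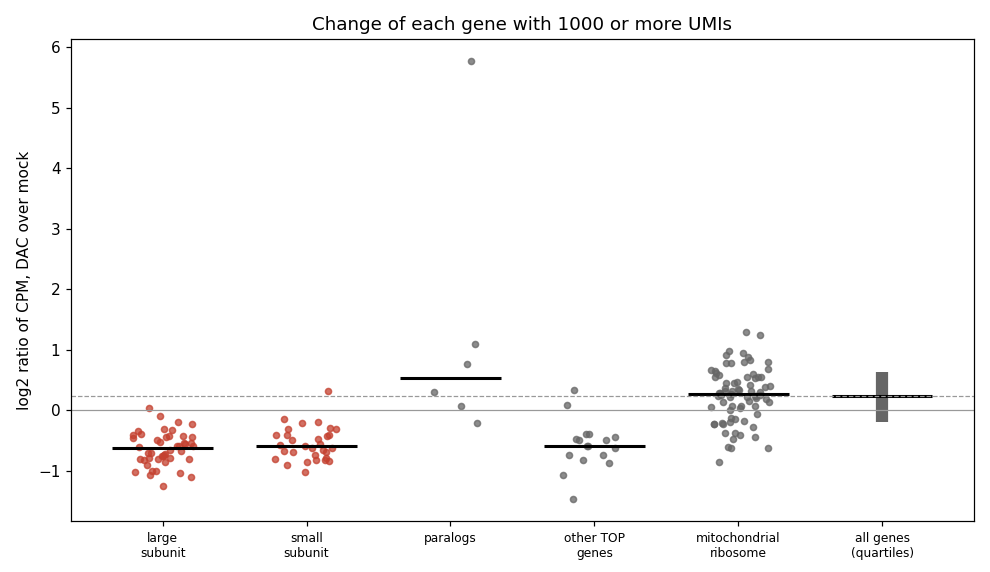
Log2 ratio of CPM, DAC over mock, for each gene with 1000 or more UMIs in 5 groups, with the median as a black line, and the quartiles and median of all 7938 genes at the right. The solid grey line marks 0 and the dashed line the median of all genes, 0.23. Both subunits (medians -0.63 and -0.59) and other TOP genes (-0.60) lie below the lines, and the mitochondrial ribosome (0.27) lies at the dashed line.

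Cells of the same library also differed more from each other after DAC treatment. To compare at 1 depth, every kept cell was thinned to 10000 UMIs, and the squared coefficient of variation (CV) beyond Poisson sampling was computed, which is 0 for a gene with sampling noise alone. Its median over members was 0.034 after mock treatment and 0.099 after DAC. Each of the 77 members had the higher value with DAC, and the median of their ratios was 3.05. Of 122 other genes outside the mitochondrial genome with a mean of 5 or more UMIs over both libraries, 83.6% had the higher value with DAC, with a median ratio of 2.01. Genes of this kind with such a mean in the library itself had median squared CVs of 0.134 (108 genes) and 0.180 (138 genes), so members varied less than these in both libraries.

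In mock-treated cells the steadiest members were RPS15A (0.0226), RPL18 (0.0233) and RPLP2 (0.0233), and among the most variable were RPL7A (0.1004) and RPL23 (0.0815). In DAC-treated cells RPL19 (0.0627), RPL18 (0.0687) and RPS24 (0.0708) were steadiest, and RPSA (0.165), RPL12 (0.148) and RPL22 (0.144) most variable. RPL7A, with 0.110 in DAC-treated cells, had the smallest ratio of DAC to mock, 1.10, and RPS18 had the largest ratio, 4.48. Correlations over cells at 10000 UMIs were taken between genes with a mean of 5 or more UMIs in the library. Pairs of members had a median of 0.30 in mock-treated cells (73 genes) and 0.37 in DAC-treated cells (72 genes). Pairs of other genes outside the mitochondrial genome had 0.024 and 0.060, all cells of a library sharing the same preparation and fixed total.

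**Figure D5:**
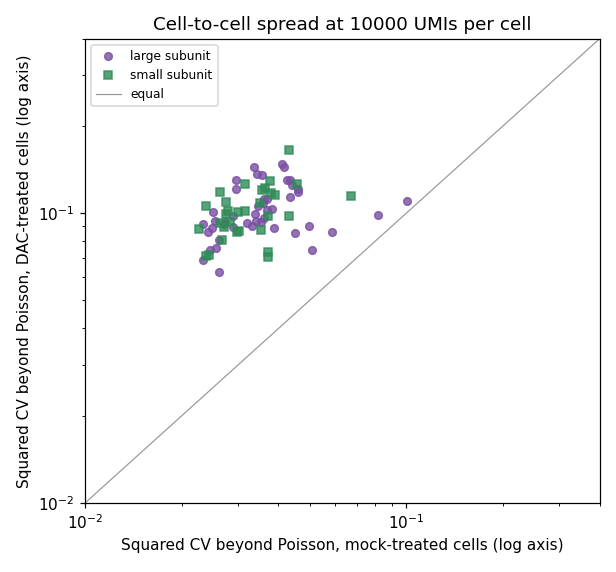
Squared CV beyond Poisson sampling of each member at 10000 UMIs per cell, in mock-treated (horizontal) and DAC-treated cells (vertical), both on log axes, with circles for the large and squares for the small subunit. All 77 points lie above the line of equal values, with medians of 0.034 and 0.099, and RPL7A lies closest to it.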

How the data were processed

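The authors prepared 1 droplet library per condition, mapped reads to hg38 and processed them with Cell Ranger, per the submitters' processing notes. They deposited unnormalized UMI counts, whole numbers for each gene in each cell. The annotation release and the treatment of reads shared by genes are not given in the sources used here. No column (0) was left unused. Results of some genes under the naming rule are not reported here.

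Genes were matched by Ensembl identifier (24 names were repeated, none of a member). Members, lists and the rule for naming genes (ends of the orders by level, ratio and spread, and the listed groups) were chosen with earlier results of these data known. Log2 ratios compare CPM of summed counts, with exact conditional binomial intervals, and levels have exact Poisson intervals. A gene at 0 in a library entered the background at 3 counts, which concerned 21 genes. Backgrounds, medians and counts used genes with 1000 UMIs in the libraries together, and listed genes below that are given by their counts and intervals. Doublets were not called, since cells of 1 line carry no marker of them, and a run without the top 5% of cells by UMIs was tried instead. Places and GC content came from GENCODE release 44 and start sites from RefSeq. Python 3.11.15, numpy 2.4.6, scipy 1.17.1, pandas 2.3.3 and matplotlib 3.10.9 were used, and the code was tested on simulated data. Alternatives covered the denominator, scaling, cell limits, thinning and the UMI minimum, and a linear GC correction was chosen after seeing the data.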

Additional observations from a re-analysis of the deposited data

How the results depend on the processing

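With 1 library per condition, none was left out and no spread between libraries was measured. No paired analysis was possible because the labels give no replicate numbers and each condition has 1 library. For the members' sum, the counting interval was narrower than the differences between scalings, while for the rare paralogs RPL3L, RPL10L and RPL39L it was wider.

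The log2 ratio of the summed members was -0.58 of non-MT UMIs, -0.77 of UMIs other than MT- genes and members, -0.85 with median-of-ratios scaling, -0.63 with all deposited cells, -0.55 in cells with 20% or less MT- UMIs, -0.62 without the 5% of cells with the most UMIs, -0.65 after thinning and -0.65 as the mean of per-cell CPM. In the same order, the median log2 ratio over members was -0.57, -0.76, -0.84, -0.63, -0.56, -0.62, -0.66 and -0.65, and it was -0.68 after the GC correction, which lowered the SD over members to 0.26. Members lower by a fold of 1.5 or more numbered 43 as given above, 63 with median-of-ratios scaling and 36 in cells with 20% or less MT- UMIs. By a fold of 1.2 or more, the numbers were 69, 75 and 66. Backgrounds are not given for these alternatives. The 1 member higher by a fold of 1.2 (RPS26) became 0 with the denominator without MT- genes and members, with median-of-ratios scaling and with averaged per-cell CPM. RPL35 turned to -0.12, -0.19 and -0.11 with that denominator, median-of-ratios scaling and the GC correction.

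The difference in the median share of a cell was -10.83 points of non-MT UMIs, -19.44 of UMIs other than MT- genes and members, -8.66 with all deposited cells, -8.40 with 20% or less MT- UMIs, -9.24 without the top 5%, -9.20 after thinning, -8.99 as a mean over cells and -9.43 as a mean over depth bins. The median squared CV was 0.028 in mock-treated and 0.072 in DAC-treated cells with 20% or less MT- UMIs, and 0.092 in DAC-treated cells thinned to 8000 non-MT UMIs, so it was higher in DAC-treated cells in each. A minimum of 100 UMIs left the members' values as they were. The cause of these shifts was not tested.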

Other observations

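Genes outside the members were ordered by the Spearman correlation over cells of their thinned counts with the members' summed count, as a description within each library that was added after the data were seen. Among 365 genes with a mean of 2 or more UMIs in both libraries, the highest values in both were those of RACK1 (0.51 in mock-treated and 0.41 in DAC-treated cells), NACA (0.42 and 0.38), TPT1 (0.34 and 0.44), EEF1A1 (0.66 and 0.33) and EEF2 (0.41 and 0.33). FAU (0.26 and 0.33), whose CPM was not lower in DAC-treated cells, was also among the highest. The lowest values in both included ITGB1 (-0.27 and -0.25), an integrin chain, EZR (-0.32 and -0.24), which links actin to the membrane, and HSPA5 (-0.23 and -0.27), the main chaperone of the endoplasmic reticulum. They also included ANKRD11 (-0.38 and -0.22) and a gene of an initiation factor, EIF3A (-0.26 and -0.19). All cells of a library were thinned to a fixed total, so a gene with a large share lowers the counts of the others.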
